A study of Homo sapiens with 24 samples.

Results

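The genes described here are 10 members of the Krüppel-like factor family: KLF2, KLF4, KLF5, KLF6, KLF7, KLF9, KLF10, KLF11, KLF13 and KLF16. They were chosen by name, with earlier results of these data known. All probe sets whose only gene symbol was 1 of these 10 were taken. This gave 31 of the 44988 probe sets that name a single gene and 10 of 18132 genes. All 10 genes passed the filter on low values, which asked for a highest group mean at or above an intensity of 12.73, and 29 of their 31 probe sets passed it singly. RNA came from U2-OS and SJSA-1, established human osteosarcoma cell lines that each derive from a single tumour. Cells of each line were exposed for 6 h to THZ2 at 25, 100 or 400 nM, or to its solvent DMSO as the control, and the RNA was read on Affymetrix PrimeView arrays. Each of the 8 groups had 3 arrays, 24 in all. THZ2 blocks CDK7 by binding it covalently; CDK7 belongs to TFIIH and phosphorylates the tail of RNA polymerase II early in transcription. The study asked which genes this treatment changes in osteosarcoma cells, at which dose and in which line.

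Krüppel-like factors are transcription factors whose zinc fingers at the carboxyl end bind GC-rich and CACCC sequences in promoters and enhancers, much as the related SP factors do. Their amino ends differ and decide the partners: KLF2, KLF4, KLF5, KLF6 and KLF7 mostly recruit acetyltransferases and activate, whereas KLF9, KLF10, KLF11, KLF13 and KLF16 carry a short helix that binds the SIN3A corepressor. Many of their transcripts are short-lived and several are induced quickly by serum, TGF-beta, shear stress or steroid hormones, and KLF10 was first found as a TGF-beta-induced early gene in bone-forming cells.

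To show what lies upstream of members with different dose patterns, the 250 bases before a start site are printed for KLF2, KLF5, KLF9 and KLF11, each 5′ to 3′ on its own strand, from RefSeq promoter sequences of GRCh38.p14. Start sites were counted for 9 of the 10 members, 14 in all. KLF10 was not counted, as its chromosome was left out for members though not for the shares over all start sites. Capitals mark matches to a motif on either strand, and no printed match overlaps another.
KLF2: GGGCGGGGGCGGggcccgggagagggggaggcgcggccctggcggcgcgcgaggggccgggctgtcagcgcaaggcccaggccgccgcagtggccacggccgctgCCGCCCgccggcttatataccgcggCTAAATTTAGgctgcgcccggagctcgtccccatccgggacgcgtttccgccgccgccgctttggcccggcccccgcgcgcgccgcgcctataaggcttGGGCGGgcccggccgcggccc
KLF5: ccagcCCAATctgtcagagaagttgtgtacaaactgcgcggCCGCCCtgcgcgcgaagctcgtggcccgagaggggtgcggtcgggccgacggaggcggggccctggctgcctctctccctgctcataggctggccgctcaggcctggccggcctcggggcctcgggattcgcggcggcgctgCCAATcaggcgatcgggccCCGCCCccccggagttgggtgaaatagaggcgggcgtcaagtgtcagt
KLF9: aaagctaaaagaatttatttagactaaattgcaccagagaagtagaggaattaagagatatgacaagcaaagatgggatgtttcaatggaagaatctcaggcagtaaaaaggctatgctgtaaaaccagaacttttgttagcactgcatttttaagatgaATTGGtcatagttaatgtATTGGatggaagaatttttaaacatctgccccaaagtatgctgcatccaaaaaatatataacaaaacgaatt
KLF11: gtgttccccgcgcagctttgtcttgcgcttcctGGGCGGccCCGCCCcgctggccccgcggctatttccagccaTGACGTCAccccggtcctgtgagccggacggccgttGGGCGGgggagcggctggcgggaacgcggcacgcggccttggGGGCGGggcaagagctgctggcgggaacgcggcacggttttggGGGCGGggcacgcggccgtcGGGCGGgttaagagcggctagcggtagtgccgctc
The KLF2 stretch lies at chr19:16324576-16324825 on the + strand. It is 80% G or C, with 4 GC boxes (GGGCGG) and 1 MEF2 box, the binding motif of the factors that carry ERK5 signals to KLF2. The KLF5 stretch, from 1 of 2 start sites of that gene, lies at chr13:73058755-73059004 on the + strand, is 70.8% G or C and holds 2 GC boxes and 2 CCAAT boxes (CCAAT). The KLF9 stretch lies at chr9:70414658-70414907 on the - strand, is 32.4% G or C and holds 2 CCAAT boxes and no GC box. The KLF11 stretch, also from 1 of 2 start sites, lies at chr2:10043971-10044220 on the + strand, is 74.4% G or C, and holds 6 GC boxes and 1 cAMP response element (TGACGTCA). KLF9 thus stands apart among the 4 in base content, against a median of 58% G or C over all start sites. Over the 35116 start sites of the table, 42.6% held a GC box in the same window, 32% a CCAAT box, 1.65% the cAMP response element and 0.515% a MEF2 box. Counted the same way, 9 of the 14 member start sites held a GC box and 6 a CCAAT box, and members with several start sites weigh more in these counts: KLF7 has 4, with a GC box at 1 of them. TATAAA, which 10.7% of all start sites held, was found at 1, the KLF5 start site that is not printed. A CArG box, the serum response motif, which 1.16% held, was found at 1 KLF7 start site, and the AP-1 site TGANTCA, which 6.57% held, at 0. These matches describe letters in a window and not bound sites.

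The deposited values are intensities on a linear scale. Median intensity per array was 33.53 to 34.48 in the U2-OS groups with DMSO, 25 and 100 nM, 36.56 to 37.27 in the U2-OS group with 400 nM and 23.43 to 25.46 in SJSA-1. From identical values that arrays share, 3 sets were taken as normalized apart: the 9 U2-OS arrays up to 100 nM, the 3 with 400 nM, and SJSA-1, where a single run is an assumption, since its values are whole hundredths on the log2 scale and would be shared by rounding alone. For U2-OS, the highest dose therefore cannot be told apart from its normalization set, nor the lines from theirs. With DMSO, 5 of 5 mesenchymal markers and 7 of 10 osteoblast lineage markers were above the filter in each line. RUNX2, which specifies osteoblasts, was among them in both lines, whereas the collagen gene COL1A2 (8.6) and TWIST1 (6.26) were under the filter in U2-OS, SPP1 (10.9) and SP7 (11) were under it in SJSA-1, and IBSP, a late osteoblast marker, was under it in every group. Of the epithelial markers 7 of 7 were above the filter in U2-OS and 6 of 7 in SJSA-1. They were led by the keratin genes KRT8 (773 and 1480) and KRT18 (2110 and 2600). Endothelial markers were above it for 3 of 5 and 4 of 5, and blood and immune markers for 3 of 6 and 2 of 6. Passing the filter therefore does not by itself show that a cell type is present. The epithelial list summed to 3061 to 3176 in U2-OS with DMSO and 2941 to 3251 with 400 nM, and to 3518 to 4695 and 4162 to 4844 in SJSA-1. One label names extraction from another tissue than bone. The nervous tissue markers summed to 254.2 to 257 in U2-OS with DMSO and 312.5 to 341.3 with 400 nM, and to 153.8 to 164.7 and 199.5 to 231 in SJSA-1, with 5 to 7 of 8 above the filter and AQP4 under it throughout; the part of these marker lists in the results was not tested. In bulk RNA, fewer cells of a type and less RNA per cell cannot be told apart. The labels do not say that the arrays of a group came from separate cultures, so p-values measure the spread between these arrays, which may be technical.

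At 400 nM THZ2 most of these genes fell in SJSA-1, while in U2-OS some fell and others rose. In SJSA-1 9 of 10 fell (24.9% of all 16170 tested genes fell) and 1, KLF4, rose (41.6% of all genes rose). In U2-OS 5 of 10 fell (24.8% of all genes), namely KLF2, KLF6, KLF7, KLF9 and KLF11, and 3 rose (48.4% of all genes), namely KLF5, KLF10 and KLF16. The median log2 change of the members was -1.04 in SJSA-1, where the median of all genes was 0.10, and -0.37 in U2-OS, where it was 0.15. Falls of at least 2-fold of intensity plus 16 were called for 5 members in SJSA-1 (8.32% of all genes). In U2-OS such a fall was called for KLF2 alone (6.74% of all genes). By mean intensity without the added 16, KLF9 in U2-OS was at 44.1% of DMSO and KLF2 at 45.7%. In SJSA-1 KLF6, KLF11 and KLF13 are not among the 5, with means at 47.7%, 41.7% and 47.7% of DMSO. Changes are differences of log2(intensity + 16), which understates the change of dim genes, and calls are limma adjusted p under 0.05 over all genes.

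The split into rises and falls depended on how the arrays were scaled. With arrays centred on the 24 poly-A control probe sets, called spike-ins here, 0 members rose and 9 fell in SJSA-1 at 400 nM, and 0 rose and 6 fell in U2-OS. Their mean log2 intensity was 5.42 to 6 in U2-OS and 6.40 to 7.46 in SJSA-1 up to 100 nM, but 7.70, 8.84 and 7.18 on the SJSA-1 arrays with 400 nM. For each count of 0 rises printed at 100 or 400 nM against DMSO, here and for the gene lists described later, limma also gave 0 rises at an unadjusted p under 0.05 with the same scaling. With arrays centred on their medians the split at 400 nM was 1 up and 9 down in SJSA-1 and 1 up and 6 down in U2-OS. Spike-in centring also lowered the median over all genes, in SJSA-1 from 0.10 to -0.43 (400 nM) and from 0.057 to -0.20 (100 nM), and in U2-OS from 0.15 to -0.15 and from 0.059 to -0.30. The shares of all genes called under the other scalings are not given, here or for the gene lists described later. Counts under those scalings can therefore not be told apart from a shift of all genes. The falls at 400 nM held their direction under each scaling, and the rises of KLF4, KLF5 and KLF16 named above did not.

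The lower doses gave a different picture. At 25 nM limma called none of the 10 members in either line, with 0 in U2-OS and 3 in SJSA-1 (KLF4, KLF5 and KLF11) at an unadjusted p under 0.05; of all genes 0.0247% rose and 0.0557% fell in U2-OS, and 2% and 6.18% in SJSA-1. At 100 nM in U2-OS, KLF4 and KLF5 rose (19.8% of all genes rose) and KLF2 and KLF7 fell (22.1% fell). At 100 nM in SJSA-1, KLF4, KLF5 and KLF6 rose (24.5% of all genes) and KLF2, KLF7 and KLF10 fell (25%). The members' median change at 100 nM was 0.054 in U2-OS and -0.13 in SJSA-1, against 0.059 and 0.057 over all genes. With spike-in centring the 100 nM splits became 1 up and 4 down in U2-OS and 0 up and 6 down in SJSA-1, and with quantile normalization the U2-OS split was 4 up and 2 down. The plot of array values by group shows both the few members that moved at 100 nM and the wider fall at 400 nM.

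**Figure D1:**
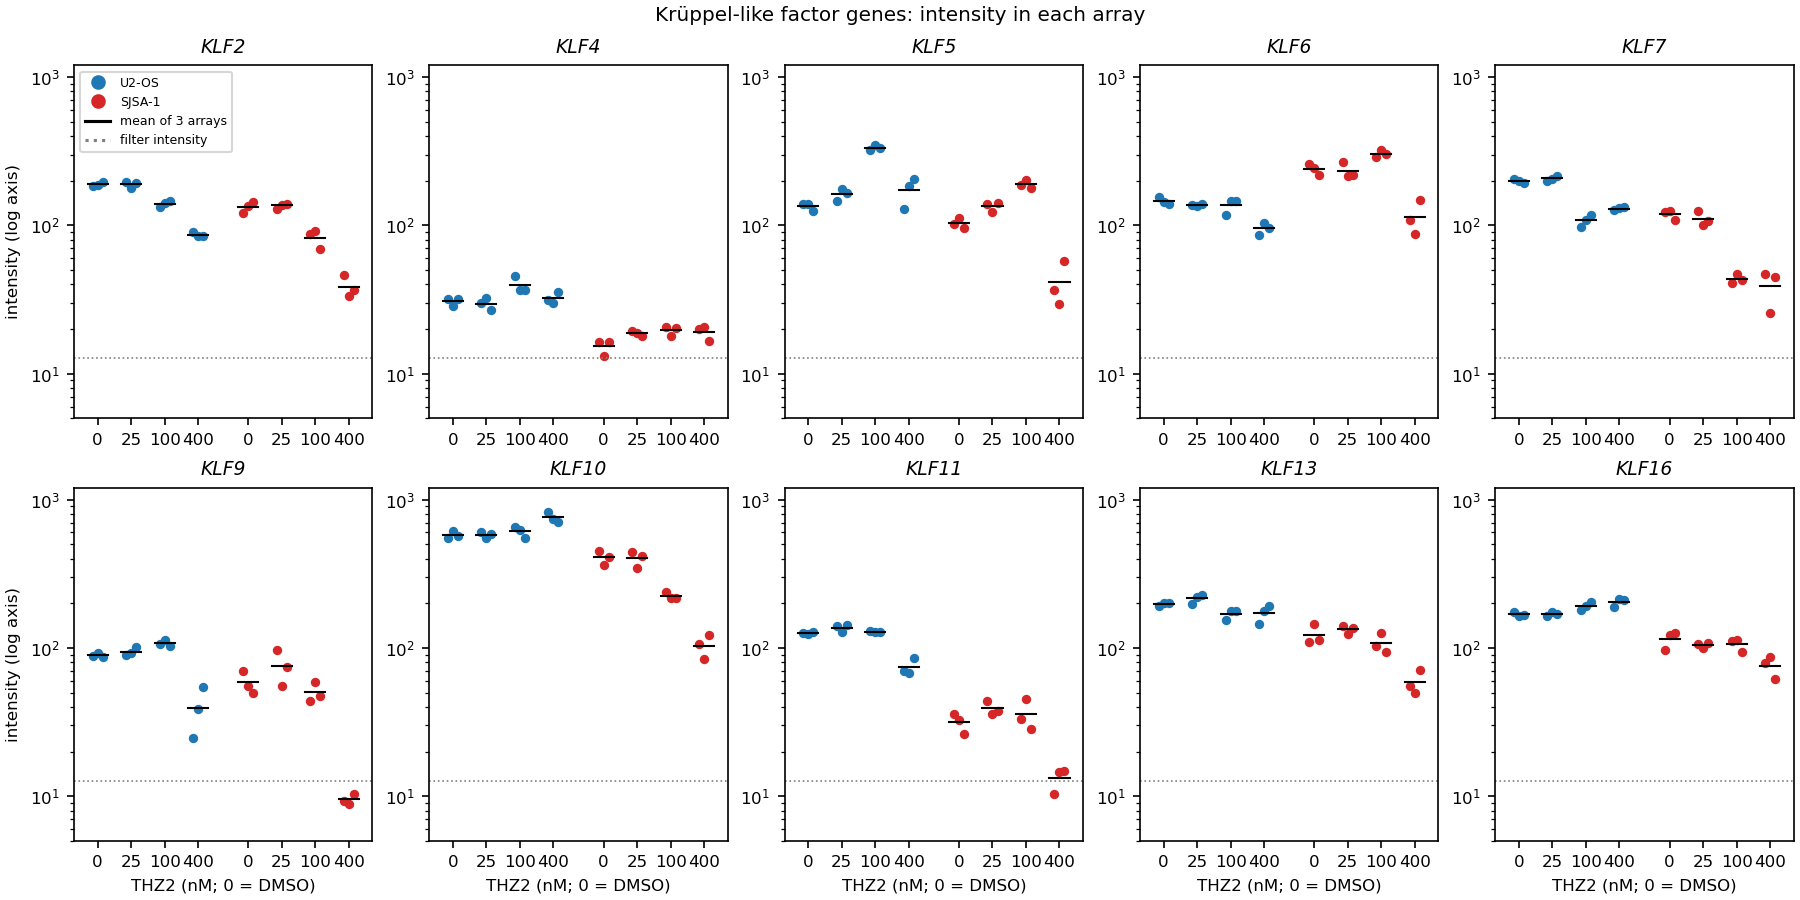
Intensity (log axis) of each array for the brightest probe set of each of the 10 KLF genes, by line and THZ2 dose; points are arrays, bars the mean of 3, and the dotted line the filter intensity of 12.73. KLF2 steps down from 100 to 400 nM in both lines, KLF5 peaks at 100 nM, and KLF9 in SJSA-1 with 400 nM lies under the filter at 8.877 to 10.34.

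KLF2, the flow-induced factor of endothelium that acts downstream of MEK5, ERK5 and MEF2, fell with dose in both lines. In U2-OS it read 184.4, 187.4 and 196.7 with DMSO, 132.1, 140.9 and 145.2 with 100 nM and 89.87, 85.03 and 84.74 with 400 nM. In SJSA-1 it read 121.1, 134.4 and 143 with DMSO, 87.43, 91.14 and 69.55 with 100 nM and 45.89, 33.36 and 36.5 with 400 nM. In both lines every array with 100 nM lay below every DMSO array and above every array with 400 nM. Mean intensity at 400 nM was 45.7% of the DMSO mean in U2-OS and 29% in SJSA-1. The log2 change was -0.40 ± 0.091 (SE; adjusted p = 0.00077) at 100 nM and -1.0 (adjusted p = 1.59e-10) at 400 nM in U2-OS. In SJSA-1 it was -0.60 (adjusted p = 3.66e-06) and -1.45 (adjusted p = 8.28e-14), with the same SE.

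The second probe set of KLF2 did not show this fall in U2-OS and showed little of it in SJSA-1. It read 96.56, 91.25 and 98.01 in U2-OS with DMSO and 92.95, 85.55 and 91.5 with 400 nM, ranges that overlap. In SJSA-1 it read 53.45, 67.18 and 58.49 with DMSO and 51.63, 59.3 and 37.01 with 400 nM, which also overlap. Its change at 400 nM was -0.07 (adjusted p = 0.515) in U2-OS and -0.22 (adjusted p = 0.0444) in SJSA-1. At 100 nM it was 0.14 (adjusted p = 0.253) in U2-OS, opposite in sign to the brighter set. In SJSA-1 at 100 nM it was -0.03 (adjusted p = 0.824). The U2-OS fall, the SJSA-1 fall at 100 nM and the size of that at 400 nM thus rest on the brighter set. The name of that set marks probes shared by several transcripts. Over the mean of both probe sets the change at 100 nM in U2-OS was -0.13 and was not called.

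KLF4, known as a reprogramming factor and an epithelial and endothelial regulator, read dimly and moved little. It read 32.01, 28.76 and 32.01 in U2-OS with DMSO, 45.33, 36.4 and 36.78 with 100 nM and 31.22, 29.99 and 35.66 with 400 nM. Its SJSA-1 arrays read 16.45, 13.09 and 16.22 with DMSO, 20.68, 17.88 and 20.25 with 100 nM and 19.84, 20.68 and 16.56 with 400 nM. The arrays with 100 nM lay above those with DMSO in both lines, and those with 400 nM overlapped DMSO in U2-OS only. The change was 0.24 ± 0.069 (adjusted p = 0.00647) at 100 nM in U2-OS, 0.19 (adjusted p = 0.0247) at 100 nM in SJSA-1 and 0.16 (adjusted p = 0.0375) at 400 nM in SJSA-1, and the sign of each turned with spike-in centring. These 3 calls were lost without 1 array: in U2-OS without replicate 1 at 100 nM (0.17, adjusted p = 0.0713), in SJSA-1 at 100 nM without DMSO replicate 2 (0.14) or replicates 1 (0.17) or 3 (0.18) at that dose, and at 400 nM without DMSO replicate 2 (0.11) or replicates 1 (0.15) or 2 (0.13) at that dose. A second KLF4 probe set, under the filter in U2-OS, read 14.72, 13.36 and 13.83 in SJSA-1 with DMSO and 5.389, 7.311 and 5.352 with 400 nM. It was called down (adjusted p = 8.32e-08), but all 3 arrays with 400 nM lay under the filter, so its size is known only as at least 1.1-fold lower.

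KLF5, a factor of proliferating epithelium and smooth muscle, rose at 100 nM and came back down at 400 nM. The U2-OS arrays read 139, 138.9 and 125.1 with DMSO, 145.2, 175.7 and 163.9 with 25 nM, 320.5, 345.6 and 330.8 with 100 nM and 128.9, 184.5 and 205.6 with 400 nM. The SJSA-1 arrays read 101.8, 112.2 and 96.34 with DMSO, 139.1, 123.6 and 141 with 25 nM, 187.4, 200.9 and 178.5 with 100 nM and 36.5, 29.45 and 57.68 with 400 nM. The 100 nM arrays were the highest of either line, and at 400 nM the arrays spread widely, overlapping DMSO in U2-OS and lying below it in SJSA-1. The mean at 100 nM was 247% of the DMSO mean in U2-OS and 183% in SJSA-1. The change at 100 nM was 1.21 ± 0.13 (adjusted p = 1.79e-08) in U2-OS, the only member with a called rise of at least 2-fold there (0.328% of all genes), and 0.78 (adjusted p = 2e-05) in SJSA-1, where it was 0.28 and not called with spike-in centring. From 100 to 400 nM KLF5 fell by 0.90 (adjusted p = 1.38e-06) in U2-OS and by 1.87 (adjusted p = 6.26e-12) in SJSA-1.

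Against DMSO, KLF5 at 400 nM changed by -1.09 (adjusted p = 7.61e-08) in SJSA-1 and by 0.31 (adjusted p = 0.0401) in U2-OS. The U2-OS call was lost without any 1 of the 3 DMSO arrays (0.33, 0.33 and 0.26) or without replicate 2 (0.25) or 3 (0.18) at 400 nM, and with spike-in centring the value was -0.058. The other 2 KLF5 probe sets fell at this dose in both lines. One read 52.33, 53.22 and 43.85 in U2-OS with DMSO and 9.428, 13.83 and 13.62 with 400 nM, which is at least 3.71-fold lower when arrays under the filter are set to 12.73. Its change was -1.22 (adjusted p = 4.1e-10) in U2-OS and -1.27 (adjusted p = 2.92e-10) in SJSA-1, where it was at least 3.02-fold lower. The other changed by -0.78 in U2-OS and -0.97 in SJSA-1. At 100 nM all 3 KLF5 probe sets rose in U2-OS, by 0.49 to 1.21, where 17.6% of single probe sets rose. The rise at 100 nM was thus shared by the probe sets in U2-OS, and the U2-OS reading at 400 nM was not.

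KLF6, a tumour suppressor whose transcript is spliced into several forms, fell at 400 nM in both lines. In U2-OS it read 154.7, 144.3 and 139.4 with DMSO, 118.2, 146.5 and 146.9 with 100 nM and 86.15, 104.3 and 95.39 with 400 nM. In SJSA-1 it read 257.8, 242.2 and 216.8 with DMSO, 290, 319.6 and 302.3 with 100 nM and 108.4, 86.82 and 147 with 400 nM. All arrays with 400 nM lay below DMSO in both lines, and those with 100 nM lay above DMSO in SJSA-1. The change at 400 nM was -0.55 ± 0.12 (adjusted p = 0.000185) in U2-OS and -0.99 (adjusted p = 4.43e-08) in SJSA-1. The rise at 100 nM in SJSA-1 was 0.33 (adjusted p = 0.023). It was lost without DMSO replicate 3 (0.27, adjusted p = 0.0971) or 100 nM replicate 2 (0.30, adjusted p = 0.0706), and turned to -0.17 with spike-in centring. Of 4 tested KLF6 probe sets, 3 rose at 100 nM in SJSA-1 (25.2% of single probe sets rose) and 3 fell at 400 nM (23.4% fell). The fourth set, at 12.6 on average in SJSA-1 with DMSO and so under the filter there, was called up at 400 nM and was at least 1.32-fold higher. In U2-OS 2 of the 4 fell at 400 nM, where 22.7% of single probe sets fell.

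KLF7, best known in neurons and in fat tissue, was already low at 100 nM, and its brightest probe set read no lower at 400 nM in U2-OS. KLF7 in U2-OS read 205.5, 198 and 191.4 with DMSO, 97.69, 108.4 and 117.7 with 100 nM and 126.1, 130.2 and 132.5 with 400 nM. KLF7 in SJSA-1 read 122.8, 125.4 and 109.1 with DMSO, 41.07, 46.85 and 42.81 with 100 nM and 46.85, 25.81 and 44.94 with 400 nM. All treated arrays at these doses lay below DMSO, and those with 100 and 400 nM did not overlap in U2-OS. The change was -0.79 ± 0.11 (adjusted p = 9.94e-07) and -0.56 (adjusted p = 5.78e-05) at 100 and 400 nM in U2-OS, and -1.18 (adjusted p = 4.96e-10) and -1.31 (adjusted p = 3.88e-11) in SJSA-1. The steps from 100 to 400 nM, 0.24 (adjusted p = 0.0623) in U2-OS and -0.13 (adjusted p = 0.393) in SJSA-1, were not called; without replicate 3 at 100 nM the U2-OS step was 0.29 (adjusted p = 0.0439). At 100 nM in SJSA-1 KLF7 was the only member called down by at least 2-fold (6.01% of all genes). Of all single probe sets, 18.9% fell in U2-OS and 22.5% in SJSA-1 at 100 nM, and 22.7% and 23.4% at 400 nM. Of the 4 KLF7 probe sets, 3 fell at both doses in each line. One of these 3 did go further down in U2-OS, from 30.68, 33.25 and 36.51 with 100 nM to 18.6, 26.78 and 27.25 with 400 nM, a step of -0.31 (adjusted p = 0.018). The fourth, which read 59.34, 62.3 and 60.75 in U2-OS with DMSO, was not called in any of these 4 comparisons.

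KLF9, a SIN3A-binding factor induced by glucocorticoid and thyroid hormone, fell at 400 nM. In U2-OS it read 87.93, 92.69 and 86.35 with DMSO, 105.4, 113.9 and 102.4 with 100 nM and 24.71, 38.47 and 54.58 with 400 nM. In SJSA-1 it read 70.03, 55.72 and 49.52 with DMSO, 44.02, 59.3 and 47.5 with 100 nM and 9.318, 8.877 and 10.34 with 400 nM. The arrays with 400 nM lay below all others of their line, and in SJSA-1 they were under the filter intensity. The change at 400 nM was -0.96 ± 0.14 (adjusted p = 1.13e-06) in U2-OS and -1.54 (adjusted p = 3.91e-10) in SJSA-1, where intensity was at least 4.54-fold lower. At 100 nM it was 0.23 (adjusted p = 0.192) in U2-OS, although each array exceeded those with DMSO, and -0.16 (adjusted p = 0.341) in SJSA-1. Of 4 KLF9 probe sets, 2 fell at 400 nM in SJSA-1 (23.4% of single probe sets fell) and 1 in U2-OS (22.7% fell). The brighter of the 2 dimmest sets rose in U2-OS by 0.21 at 400 nM (48.4% of single probe sets rose). It also rose there by 0.21 at 100 nM (adjusted p = 0.00488, 17.6% rose). The dimmest was called up by 0.25 in U2-OS at 400 nM. It passed the filter through that group alone, so this call does not count as support for a rise. These dim sets read at most 22.95 in U2-OS with 400 nM, and the dimmer of them was under the filter with DMSO (8.24 on average) and near it with 400 nM (12.9), so no fold is given.

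KLF10, also called TIEG, moved in opposite directions in the lines. U2-OS arrays gave 547.2, 609.8 and 566.5 with DMSO, 658, 625.9 and 551 with 100 nM and 825.4, 745 and 711.1 with 400 nM. SJSA-1 arrays gave 448.8, 364.6 and 413 with DMSO, 238.9, 218.3 and 218.3 with 100 nM and 105.4, 83.87 and 121.9 with 400 nM. In SJSA-1 the DMSO, 100 nM and 400 nM arrays formed 3 separate steps downward, while in U2-OS those with 400 nM lay above DMSO. The mean at 400 nM was 132% of the DMSO mean in U2-OS and 25.4% in SJSA-1. The change was 0.39 ± 0.11 (adjusted p = 0.00162) at 400 nM in U2-OS, which fell to 0.0016 with spike-in centring, and 0.09 (adjusted p = 0.518) at 100 nM. In SJSA-1 it was -0.81 (adjusted p = 2.53e-07) at 100 nM and -1.83 (adjusted p = 1.18e-14) at 400 nM, the lowest adjusted p of any member in that comparison. The second KLF10 probe set gave the same calls, with changes of 0.44 in U2-OS and -1.84 in SJSA-1 at 400 nM, and both are of the kind whose probes match several transcripts.

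KLF11, a TGF-beta-inducible relative of KLF10, fell at 400 nM in both lines on its brightest probe set, whose probes match several transcripts. In U2-OS it read 126.8, 123.5 and 127.8 with DMSO, 129.7, 127.4 and 127.8 with 100 nM and 69.95, 67.79 and 85.23 with 400 nM. In SJSA-1 it read 36, 32.67 and 26.17 with DMSO, 32.9, 45.57 and 28.44 with 100 nM and 10.27, 14.52 and 14.72 with 400 nM. The 100 nM arrays overlapped DMSO in both lines and the 400 nM arrays lay below it. The change at 400 nM was -0.66 ± 0.10 (adjusted p = 2.06e-06) in U2-OS and -0.71 (adjusted p = 1.34e-06) in SJSA-1. Mean intensity at 400 nM was 59% of the DMSO mean in U2-OS and 41.7% in SJSA-1, a wider gap than on the log2 scale, where 16 was added. The other tested KLF11 probe set changed by -0.12 (adjusted p = 0.305) in U2-OS at 400 nM and was not called. In SJSA-1 it read 27.47, 24.08 and 33.82 with DMSO and 33.59, 42.52 and 35.26 with 400 nM, ranges that overlap. It was called up there by 0.26 (adjusted p = 0.0326), and by 0.27 (adjusted p = 0.034) at 100 nM, where 25.2% of single probe sets rose.

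KLF13, an activator of the chemokine CCL5 in T cells, and KLF16, a repressor, fell at 400 nM in SJSA-1. KLF13 read 192.2, 201.8 and 199.5 in U2-OS with DMSO and 144.7, 178.3 and 192.6 with 400 nM, and 109.9, 145 and 113 against 54.95, 49.52 and 71.01 in SJSA-1. KLF16 read 174.6, 163.9 and 165.4 in U2-OS with DMSO and 187.5, 213.3 and 209.8 with 400 nM, and 96.34, 121.9 and 125.4 against 79.34, 86.82 and 61.39 in SJSA-1. Both lay below DMSO on each SJSA-1 array with 400 nM, where KLF13 changed by -0.90 ± 0.12 (adjusted p = 1.59e-07) and KLF16 by -0.51 ± 0.10 (adjusted p = 9.12e-05). In U2-OS KLF13 changed by -0.20 (adjusted p = 0.127) and KLF16 was called up by 0.25 (adjusted p = 0.0247). The KLF16 rise was -0.12 with spike-in centring, was not called with median centring (0.15), and was lost without DMSO replicate 2 (0.24) or 3 (0.24) or 400 nM replicate 2 (0.22) or 3 (0.23). Neither was called at 100 nM in either line, with changes of -0.21 and 0.18 in U2-OS and -0.17 and -0.09 in SJSA-1 for KLF13 and KLF16. Both KLF13 probe sets fell at 400 nM in SJSA-1 (23.4% of single probe sets fell). At 100 nM in SJSA-1 the dimmer one rose by 0.36 (adjusted p = 0.00533, 25.2% rose). For KLF16 3 of 4 probe sets fell at 400 nM in SJSA-1, against the same 23.4%. In U2-OS at 400 nM 1 of the 4 was called up (48.4% of single probe sets rose). The others read 110%, 96.1% and 87.6% of their DMSO means there and were not called.

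**Figure D2:**
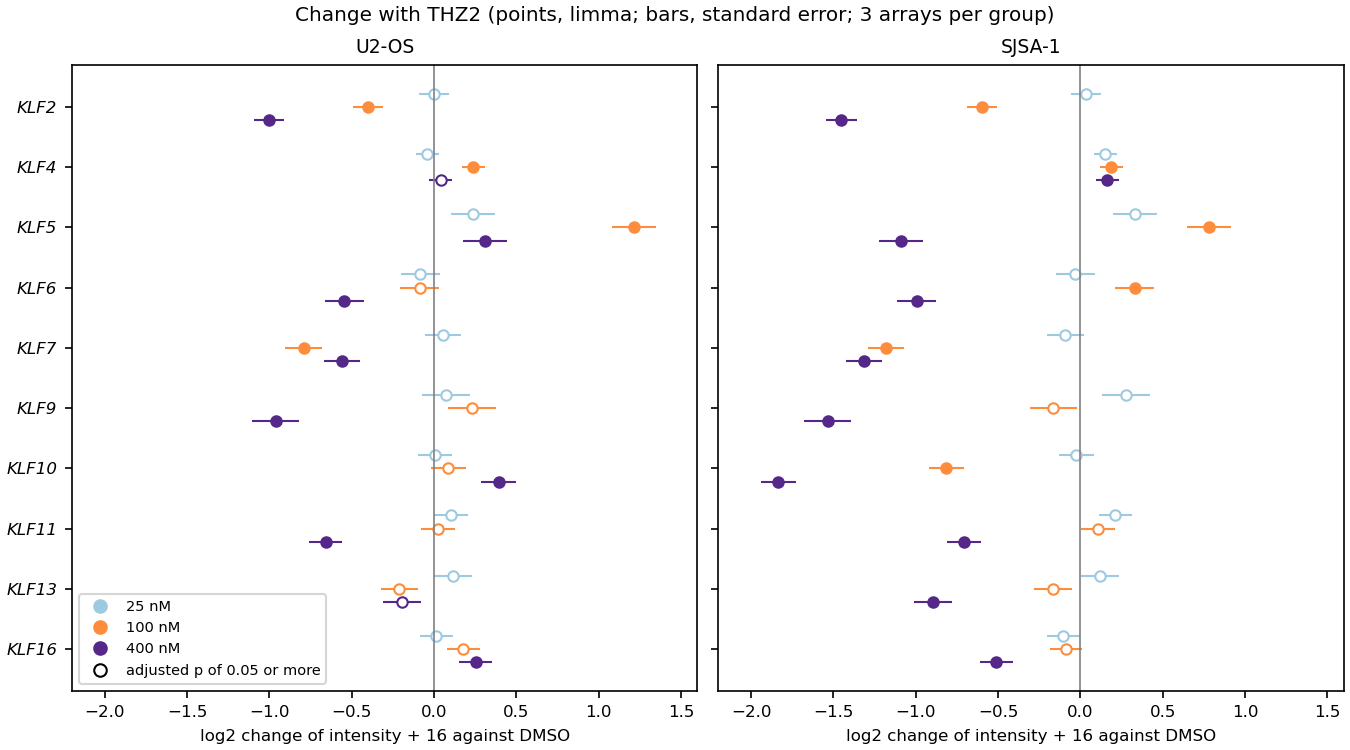
Change in log2(intensity + 16) against DMSO (horizontal axis, bars are 1 SE) of the 10 KLF genes (vertical axis) at 25, 100 and 400 nM THZ2. U2-OS and SJSA-1 are in separate panels, and open points have a limma adjusted p of 0.05 or more. At 400 nM in SJSA-1 the values run from -1.83 (KLF10) to 0.16 (KLF4, which turns negative with spike-in centring), and in U2-OS from -1.0 (KLF2) to 0.39 (KLF10).

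Successive doses separated the members by the dose at which they moved. From 25 to 100 nM in U2-OS, KLF4 and KLF5 rose (24.8% of all genes rose) and KLF2, KLF7 and KLF13 fell (23.1% fell). The KLF13 step, -0.32 (adjusted p = 0.0226), was lost without 25 nM replicate 2 (-0.31) or 3 (-0.29) or 100 nM replicate 1 (-0.26), and the KLF4 step of 0.28 (adjusted p = 0.00167) turned to -0.018 with spike-in centring. From 25 to 100 nM in SJSA-1, KLF5 and KLF6 rose (18.6%) and KLF2, KLF7, KLF9, KLF10 and KLF13 fell (23%). Among these, KLF6 (0.36), KLF9 (-0.44) and KLF13 (-0.28) lost the call without 1 array: KLF6 without 25 nM replicate 2 (0.31) or 3 (0.32) or 100 nM replicate 2 (0.33), KLF9 without replicate 1 at 25 nM (-0.28) or 100 nM (-0.38), and KLF13 without replicate 1 or 3 at either dose (-0.21 to -0.27). KLF6 also turned to -0.049 with spike-in centring.

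From 100 to 400 nM the falls dominated. In SJSA-1 8 members fell (11.6% of all genes fell) and 0 rose (14.8% rose; all 8 members with an unadjusted p under 0.05 fell), with KLF4 and KLF7 not called. In U2-OS 6 fell (20.1%), namely KLF2, KLF4, KLF5, KLF6, KLF9 and KLF11, and KLF10 rose (44.3%). The KLF4 step, -0.20 (adjusted p = 0.0132), was lost without 100 nM replicate 1 (-0.12) or 400 nM replicate 2 (-0.16). The KLF10 step, 0.31 (adjusted p = 0.0126), was lost without 100 nM replicate 3 (0.24) or 400 nM replicate 1 (0.25). Against DMSO, the brightest sets of KLF9 and KLF11 were called at 400 nM and not at 100 nM in both lines, and that of KLF7 at both doses. At 100 nM a dimmer KLF9 set was called up in U2-OS (0.21, adjusted p = 0.00488). A dimmer KLF11 set was called up in SJSA-1 (0.27, adjusted p = 0.034).

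The changes differed between the lines for most members at 400 nM. The difference, SJSA-1 change minus U2-OS change, was negative and called for 8 of 10 (31.3% of all genes had a lower change in SJSA-1) and positive for 0 (14.4% of all genes; 8 members had an unadjusted p under 0.05). The count of 8 became 5 with spike-in centring, with median centring within each line and with quantile normalization. The members' median difference was -0.64, against -0.094 over all genes. It was widest for KLF10, at -2.23 ± 0.15 (adjusted p = 2.99e-12), and KLF5 followed with -1.40 ± 0.19 (adjusted p = 1.08e-06). KLF16 (-0.76 ± 0.14, adjusted p = 7.62e-05), KLF7 (-0.76 ± 0.16, adjusted p = 0.000265) and KLF13 (-0.70 ± 0.16, adjusted p = 0.000883) came next. On their brightest probe sets KLF4 (0.12, adjusted p = 0.309) and KLF11 (-0.05, adjusted p = 0.814) were not called. A dimmer set of each gene did give a called difference. It was -0.57 (adjusted p = 1.1e-06) for KLF4, on a set under the filter in U2-OS, and 0.38 (adjusted p = 0.0352) for KLF11. The U2-OS arrays with 400 nM form a normalization set of their own, and its part in these differences was not tested.

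Several of these line differences were less firm. KLF9 (-0.57, adjusted p = 0.0224) lost the call without U2-OS 400 nM replicate 3 (-0.38) or SJSA-1 DMSO replicate 1 (-0.46). KLF6 (-0.45, adjusted p = 0.0302) lost it without any of 8 of the 12 arrays concerned: U2-OS DMSO replicate 2 (-0.44) or 3 (-0.42), U2-OS 400 nM replicate 2 (-0.39) or 3 (-0.45), SJSA-1 DMSO replicate 1 (-0.39) or 2 (-0.44), and SJSA-1 400 nM replicate 1 (-0.43) or 2 (-0.29). KLF2 (-0.45, adjusted p = 0.00589) was -0.16 and not called with quantile normalization. The KLF5 difference rested on its brightest probe set, since the other 2 gave -0.05 and -0.19, neither called. For KLF7 the other 3 probe sets gave -0.30, -0.25 and -0.20, none called, and for KLF2 the other gave -0.15, not called. Of the 4 KLF16 probe sets only 1 gave a called difference. At 100 nM KLF10 alone differed, at -0.90 ± 0.15 (adjusted p = 6.61e-05; 9.65% of all genes were lower in SJSA-1 and 7.09% higher), and at 25 nM limma called 0 members in either direction (0.192% and 0.884% of all genes), with 0 at an unadjusted p under 0.05. With spike-in centring the 100 nM difference of KLF10 was -0.89 (adjusted p = 0.242).

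**Figure D3:**
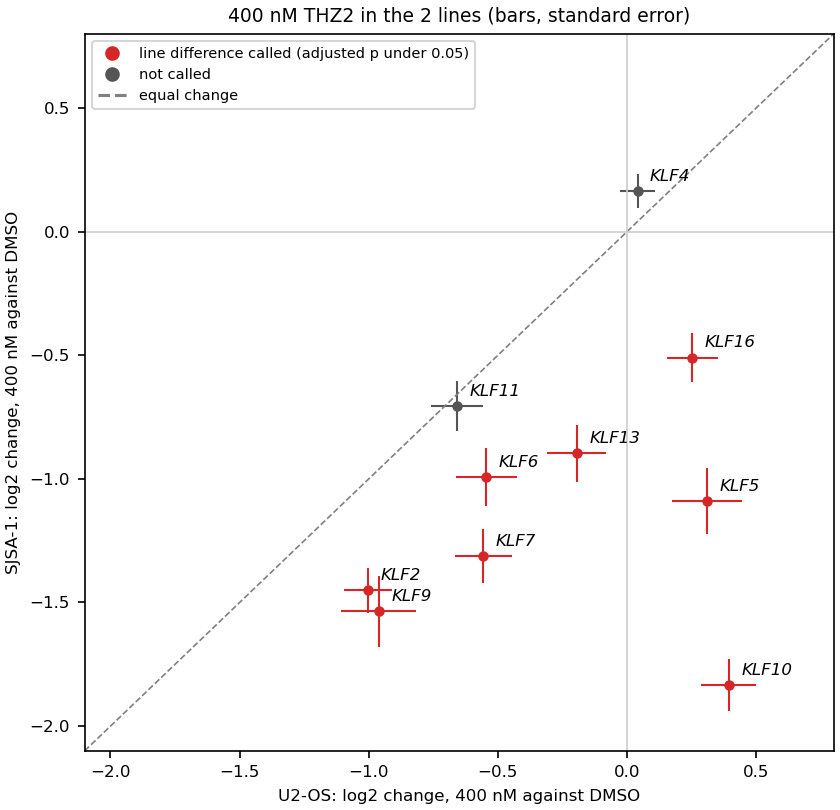
Change in log2(intensity + 16) at 400 nM THZ2 against DMSO in U2-OS (horizontal) and SJSA-1 (vertical), 1 point per KLF gene with bars of 1 SE, red where the line difference had a limma adjusted p under 0.05. KLF10 lies farthest from equal change, at 0.39 and -1.83, and KLF11 on its brightest probe set lies close to it, at -0.66 and -0.71. A dimmer KLF11 set gave a called difference of 0.38. Without the added 16, KLF11 was at 59% of the DMSO mean in U2-OS and 41.7% in SJSA-1, where it read 13.2 with 400 nM, near the filter.

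With DMSO alone, on the brightest probe sets, 9 members read lower in SJSA-1 (63.4% of all genes did) and KLF6 read higher (21.6% of all genes did). KLF11 differed most, at -1.58 ± 0.10 (adjusted p = 5.03e-14), with 123.5 to 127.8 in U2-OS and 26.17 to 36 in SJSA-1. KLF6 was higher by 0.65 ± 0.12 (adjusted p = 1.34e-05), and lower, by -0.65, with spike-in centring. The 8 other differences ran from -0.33 (KLF5) to -0.67 (KLF7), beside a median of -0.34 over all genes. With median centring KLF2 (-0.063), KLF9 (-0.14), KLF10 (-0.047), KLF13 (-0.23) and KLF16 (-0.10) were no longer called, and KLF5 was 0.061. The KLF5 difference (adjusted p = 0.0237) also lost the call without U2-OS DMSO replicate 1 (-0.31) or 2 (-0.31) or SJSA-1 DMSO replicate 3 (-0.29). The second KLF4 set was called higher in SJSA-1 (0.51, adjusted p = 1.77e-09), opposite to the brightest, and 1 KLF6 set was called lower (-0.17, adjusted p = 0.0279). Single sets of KLF5 (0.015), KLF7 (0.15) and KLF9 (0.12) were not lower and not called. All tested sets of KLF2, KLF10, KLF11 and KLF13 were called lower. The lines and their normalization sets cannot be told apart here.

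**Figure D4:**
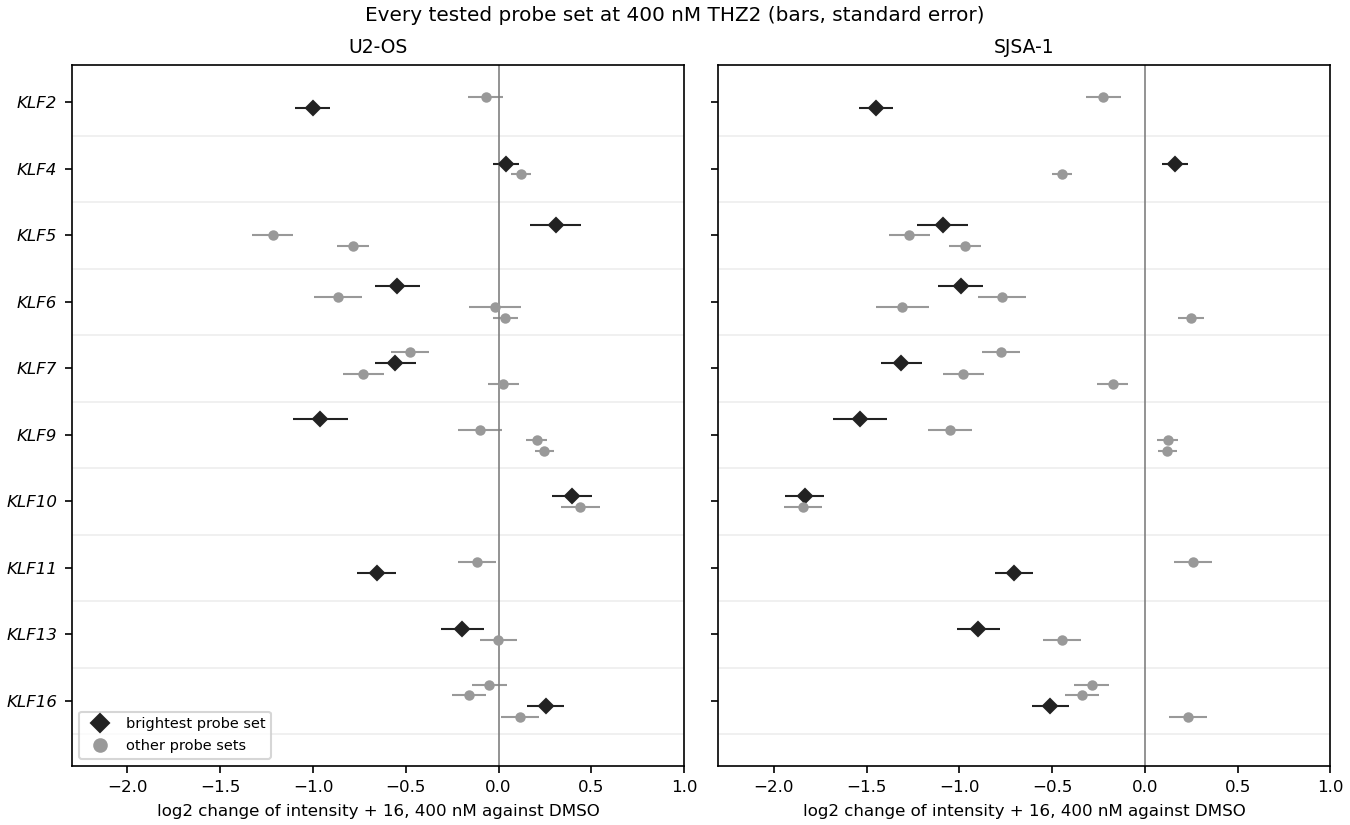
Change in log2(intensity + 16) at 400 nM THZ2 against DMSO of each of the 29 tested probe sets of the 10 KLF genes, with U2-OS and SJSA-1 in separate panels; diamonds mark the brightest set of a gene. The 3 KLF5 sets read 0.31, -0.78 and -1.22 in U2-OS and lie between -0.97 and -1.27 in SJSA-1, and the 2 KLF10 sets lie together in both lines.

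The other 7 KLF genes on the array, KLF1, KLF3, KLF8, KLF12, KLF14, KLF15 and KLF17, gave 3 rises and 1 fall in U2-OS at 400 nM, where 48.4% of all genes rose and 24.8% fell, and 2 rises and 1 fall in SJSA-1, where 41.6% rose and 24.9% fell. Their medians were 0.093 and -0.079. KLF8 and KLF17 rose by 0.90 and 0.23 in U2-OS at 400 nM, and KLF3, a CTBP-binding repressor, rose by 0.47 at 25 nM and changed by -0.65 at 400 nM in SJSA-1. Of the 9 SP genes, which share the KLF binding motif, 3 rose and 2 fell in U2-OS and 3 rose and 4 fell in SJSA-1 at 400 nM, against the same shares of all genes. SP1 changed by -1.99 at 400 nM and SP2 by -0.79 at 100 nM in SJSA-1, and SP4 by -0.89 at 100 nM in U2-OS. SP7, the osteoblast factor osterix, rose by 0.45 in U2-OS at 400 nM. With spike-in centring the 400 nM counts for the other KLF genes were 1 up and 2 down in U2-OS and 0 up and 5 down in SJSA-1, and for the SP genes 1 up and 4 down and 0 up and 6 down.

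Of 9 tested KLF cofactors 4 rose and 5 fell in U2-OS at 400 nM (48.4% of all genes rose and 24.8% fell), and 1 rose and 5 fell in SJSA-1 (41.6% and 24.9%), with medians of -0.31 and -0.26. CREBBP, the acetyltransferase CBP, changed by -2.62 at 400 nM in SJSA-1, and SIN3A and SIN3B, scaffolds of the corepressor that KLF9, KLF10, KLF11, KLF13 and KLF16 bind, changed by -1.19 and -1.46 at 100 nM in SJSA-1. KAT2B, another acetyltransferase, rose by 1.68 in U2-OS at 400 nM. Of 13 genes of the pathways that induce KLF genes, 5 rose and 3 fell in U2-OS, near the shares of all genes, and 0 rose and 7 fell in SJSA-1 at 400 nM, with medians of 0.13 and -0.26. Among them the TGF-beta effector SMAD3 changed by -1.75 in SJSA-1 and MEF2A by 0.98 in U2-OS, both at 400 nM. TGFBR2, a TGF-beta receptor, changed by -0.83 at 400 nM in U2-OS, and MAPK7, which encodes ERK5, by -0.82 at 100 nM in SJSA-1. With spike-in centring the 400 nM splits were 1 up and 5 down (U2-OS) and 0 up and 9 down (SJSA-1) for the cofactors and 1 up and 4 down and 0 up and 13 down for the inducing pathways.

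Of 7 tested genes for ubiquitin enzymes that act on KLF proteins, 1 rose and 5 fell in U2-OS (48.4% of all genes rose and 24.8% fell) and 0 rose and 5 fell in SJSA-1 (41.6% and 24.9%) at 400 nM, with medians of -0.62 and -0.74. SIAH1 (-2.53), FBXW7 (-1.99), which marks KLF5 and KLF2 for degradation, and SMURF2 (-1.92) had the largest changes of these in SJSA-1. In U2-OS FBXW7 rose by 0.74 (adjusted p = 3.66e-05) at 100 nM and changed by -0.62 at 400 nM. Of 10 genes for proteins that bind AU-rich or related elements in short-lived transcripts or deadenylate them, 3 rose and 5 fell in U2-OS and 0 rose and 6 fell in SJSA-1 at 400 nM, beside those same shares of all genes. ZFP36, which speeds decay, rose by 1.5 in U2-OS, and ZFP36L2, TIAL1 and ZFP36L1 changed by -2.2, -1.33 and -1.12 in SJSA-1. Of 19 tested genes described as KLF targets, 9 rose and 7 fell in U2-OS and 4 rose and 9 fell in SJSA-1 at 400 nM, so that the rises in U2-OS were close to the share of all genes. CDKN1B (-2.60), CCNE1 (-2.33) and SMAD7 (-1.80), an inhibitor of TGF-beta signalling, were the named falls in SJSA-1, and ATF3 rose by 1.36 at 100 nM in U2-OS. With spike-in centring the 400 nM splits in U2-OS and SJSA-1 were 0 up and 5 down and 0 up and 7 down for the ubiquitin enzymes, 1 up and 4 down and 0 up and 10 down for the AU-rich element list, and 2 up and 9 down and 0 up and 17 down for the targets.

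Across the 8 group means, each centred on its line, some genes followed a member closely; this is a description among 4210 genes that moved by at least 0.5, over points that share arrays and normalization sets. The closest to KLF2 was KANK1 (Pearson r = 0.999), to KLF5 SOCS5 (r = 0.996), to KLF7 PSMG3 (r = 0.999), to KLF9 CDCA2 (r = 0.998) and to KLF11 RLF (r = 0.998). EXT1 was closest to KLF13 (r = 0.995), HSPA2 to KLF10 (r = 0.98), ELF1 to KLF6 (r = 0.976) and PELI2 to KLF16 (r = 0.946). KLF4 had the weakest match, SNAPC3 (r = 0.908).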

How the data were processed

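Intensities of 49372 probe sets on 24 arrays were taken from the series' value table. The authors deposited them as intensity on a linear scale; MAS5 and RMA stand in the submitters' processing notes, without versions or a statement of which made these values. From these values, log2(intensity + 16) was computed. Genes were named through GEO's platform annotation: 44988 probe sets named 1 gene, 1832 several, 2473 none and 79 were controls, and those naming 1 gene were used. The probe set with the highest mean stood for a gene. Genes whose highest group mean was under the 30th percentile of all values, 12.73, were left out, which left 16170 of 18132 genes; 37931 probe sets were also fitted singly.

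Group means of all 24 arrays (16 residual degrees of freedom) were fitted in R 4.3.3 by limma 3.58.1, moderating variances by empirical Bayes along an intensity trend, in 14 comparisons. Benjamini-Hochberg adjustment ran over all genes of a comparison, at a threshold of 0.05. An exact permutation test of 3 against 3 arrays cannot go below 0.1. The fit was tested on simulated data. Alternatives were other scalings, filters, pseudocounts, probe set rules and sample sets.

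A bound ("at least") divides the brighter group's mean by the dimmer one's after raising arrays to 12.73. Arrays limit the precision by their number alone. All 10 members are described. From each context list up to 3 genes with the largest change in the more frequent direction at any dose and 1 in the other were named, and for likeness the closest gene by correlation. The members and lists were chosen with earlier results of these data known.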

Additional observations from a re-analysis of the deposited data

Results flagged for a closer look

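The members listed here had an effect of THZ2 that differed between the lines by the test of the difference itself, the limma contrast of both changes (SJSA-1 minus U2-OS). At 400 nM the difference was -0.45 ± 0.13 (SE) for KLF2 (adjusted p = 0.00589), -1.40 ± 0.19 for KLF5 (adjusted p = 1.08e-06), -0.45 ± 0.17 for KLF6 (adjusted p = 0.0302), -0.76 ± 0.16 for KLF7 (adjusted p = 0.000265) and -0.57 ± 0.20 for KLF9 (adjusted p = 0.0224). It was -2.23 ± 0.15 for KLF10 (adjusted p = 2.99e-12), -0.70 ± 0.16 for KLF13 (adjusted p = 0.000883) and -0.76 ± 0.14 for KLF16 (adjusted p = 7.62e-05). KLF10 also differed at 100 nM, by -0.90 ± 0.15 (adjusted p = 6.61e-05). KLF10 is the member with called changes of opposite sign on all of its probe sets, up on both in U2-OS and down on both in SJSA-1 at 400 nM. In all 3 arrays per group at 400 nM, KLF10 exceeded DMSO in U2-OS and lay below it in SJSA-1. The U2-OS arrays with 400 nM are a normalization set of their own. With spike-in centring no member was called up in U2-OS at 400 nM. Fewer of the line differences at 400 nM were called with spike-in centring, with median centring within each line and with quantile normalization. For KLF2, KLF5, KLF7 and KLF16 only 1 probe set gave a called difference at 400 nM. KLF4 and KLF11 are not listed by their brightest sets, but a dimmer set of each gave a called difference at 400 nM (-0.57 and 0.38).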

How the results depend on the processing

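Every value here belongs to KLF genes. Of 140 changes (10 genes, 14 comparisons) all kept direction and side of the threshold with the 50th percentile filter and without an intensity trend, 139 with no filter or pseudocount 1, 136 with ribosomal centring, 133 with pseudocount 64, 131 with median centring within each line, 127 with median centring or quantile normalization, 126 with only the groups compared, 119 with probe sets averaged per gene and 114 with spike-in centring. Leaving out 1 array kept 972 of 1020 and turned 0. Another probe set kept 180 of 266 and turned 38. With a replicate block within each line 130 of 130 were kept; it gives no difference between the DMSO groups, and correlations of same-numbered arrays, -0.635 to 0.419, do not pair the numbers. The order of levels between genes was not run, since levels of different probe sets are not compared. Low intensity limits KLF4, the dim KLF9 sets, and KLF9 and KLF11 in SJSA-1 at 400 nM. Causes of the shifts were not tested.

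Counts of KLF genes in the text moved by over 1.5 times as follows. With spike-in centring, rises became 1 (U2-OS, 100 nM), 0 (U2-OS, 400 nM), 0 and 0 (SJSA-1, 100 and 400 nM), 1 and 0 (U2-OS steps to 100 and 400 nM) and 0 (SJSA-1 step to 100 nM), falls at 100 nM 4 (U2-OS) and 6 (SJSA-1), and lower changes in SJSA-1 0 at 100 nM and 5 at 400 nM. With median centring, overall or within each line, rises in U2-OS became 1 (400 nM) and 0 (step to 400 nM), and 1 change was higher in SJSA-1 at 400 nM; within each line 5 were lower. Ribosomal centring, pseudocount 64 and the compared groups alone left 0 rises in SJSA-1 at 400 nM. Quantile normalization gave 4 rises in U2-OS at 100 nM, 0 at its step to 400 nM, 3 falls at the SJSA-1 step to 100 nM, and 2 (100 nM) and 5 (400 nM) lower changes in SJSA-1. The probe set mean gave 1 fall (U2-OS, 100 nM), 1 rise (U2-OS, 400 nM), 2 rises (SJSA-1, 25 nM), 0 rises (SJSA-1, 400 nM), 1 fall (U2-OS step to 100 nM) and 1 higher change in SJSA-1 at 100 nM. Pseudocount 64 gave 2 rises at the U2-OS step to 400 nM and 2 lower changes in SJSA-1 at 100 nM. The compared groups alone gave rises of 1, 4, 4 and 2 in U2-OS (25 nM, 100 nM, steps to 100 and 400 nM), and 1 higher and 3 lower changes in SJSA-1 at 100 nM. Leaving out 1 array gave rises of 1 to 2 (U2-OS, 100 nM), 1 to 3 (U2-OS, 400 nM), 0 to 1 (SJSA-1, 400 nM), 0 to 1 (U2-OS step to 400 nM) and 1 to 2 (SJSA-1 step to 100 nM), and falls of 3 to 5 at that last step.

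Changes turned sign with spike-in centring for KLF4 (-0.11 in U2-OS and -0.080 in SJSA-1 at 100 nM, -0.26 in SJSA-1 at 400 nM, -0.018 at the U2-OS step to 100 nM), KLF5 (-0.058, U2-OS, 400 nM), KLF6 (-0.17 in SJSA-1 at 100 nM, -0.049 at its step to 100 nM, -0.65 between DMSO groups), KLF11 (-0.43, U2-OS, 100 nM) and KLF16 (-0.12, U2-OS, 400 nM). With median centring KLF5 was 0.061 between DMSO groups. With the probe set mean KLF5 was -0.56 (U2-OS, 400 nM) and KLF4 -0.14 (SJSA-1, 400 nM) and -0.22 (line difference, 400 nM). Single other probe sets turned the sign in U2-OS for KLF2 (0.14 at 100 nM, 0.14 at the step to it), at 400 nM for KLF5 (-1.22, -0.78), KLF6 (0.036), KLF7 (0.026), KLF9 (0.21, 0.25) and KLF16 (-0.051, -0.16), at the step to 100 nM for KLF13 (0.14), and at the step to 400 nM for KLF4 (0.096), KLF6 (0.015), KLF7 (-0.31), KLF9 (0.15) and KLF16 (-0.24). In SJSA-1 they did so at 100 nM for KLF7 (0.069) and KLF13 (0.36), at 400 nM for KLF4 (-0.45), KLF6 (0.25), KLF9 (0.12, 0.12), KLF11 (0.26) and KLF16 (0.23), at the step to 100 nM for KLF9 (0.016) and KLF13 (0.25), and at the step to 400 nM for KLF9 (0.036) and KLF16 (0.097). For line differences at 400 nM they did so for KLF4 (-0.57), KLF6 (0.096, 0.21), KLF11 (0.38) and KLF16 (0.12), and between DMSO groups for KLF4 (0.51), KLF5 (0.015), KLF6 (-0.17), KLF7 (0.15) and KLF9 (0.12).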

Other observations

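Among the members themselves, the group means (8 values, each centred on its line) ran most closely together for KLF9 and KLF11 (r = 0.973), KLF2 and KLF9 (r = 0.922), KLF2 and KLF13 (r = 0.91) and KLF6 and KLF11 (r = 0.901). KLF10 and KLF16, the members called up in U2-OS and down in SJSA-1 at 400 nM besides KLF5, followed each other with r = 0.875. KLF4 and KLF7 ran in opposite directions (r = -0.716). These are descriptions over points that share arrays and normalization sets.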
